A study of Mus musculus with 6 samples.

Results

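The 37 genes carried by the mitochondrial genome itself were examined in LT-HSCs, long-term hematopoietic stem cells that renew the blood for life, from unirradiated wild-type mice given saline or carnosine. Members were the rows whose gene symbol starts with mt-, 37 of 55487 genes in the deposited table. They comprise 13 protein-coding genes, 2 ribosomal RNA (rRNA) genes and 22 transfer RNA (tRNA) genes. Of the 13 proteins, 7 belong to complex I, 1 to complex III, 3 to complex IV and 2 to complex V. The cells of both groups had been sorted as lineage-negative, Sca-1-positive and c-Kit-positive cells without surface Flk2 or CD34, and each group had 3 libraries. Carnosine is a dipeptide of beta-alanine and histidine. Not given in the sources used here are the dose, route and duration of treatment, the number of animals, and their age and sex. Whether the 3 libraries within a group were separate animals is not stated either, so the spread behind each p-value may be technical.

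Mitochondrial DNA is a small circle that each cell holds in many copies. Its 2 strands, called heavy and light, are each transcribed from end to end into long precursors by a dedicated polymerase, POLRMT, with the factor TFAM. Most mRNA and rRNA genes are flanked by tRNA genes, and the enzymes that cut out the tRNAs also release the mRNAs and rRNAs, which then receive short poly-A tails. The 13 proteins are core subunits of the respiratory chain and of ATP synthase, and all other subunits come from nuclear genes. LT-HSCs at rest are known to rely little on respiration, and their mitochondria have been studied as a mark of the switch from rest to activity.

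The libraries held 10304539 to 13251332 counts, of which 277910 to 411095 lay on the 37 genes. Levels below are CPM (counts scaled to library size on the TMM scale; library factors 0.998 to 1.003), as mean ± SD with n = 3, unless FPKM is named. Stem cell markers were present: all 12 listed had counts, and their summed level was 1403 to 1485 CPM in saline and 1371 to 1508 CPM in carnosine. RNA for the 2 proteins that the sort excludes was also present, Flt3 (Flk2) at 818 ± 15.1 CPM in saline and 775 ± 11 in carnosine, and Cd34 at 857 ± 24.5 and 861 ± 14.9. Erythroid markers summed to 52.7 to 61.3 CPM in saline and 153 to 157 in carnosine (5 of 10 called higher by edgeR, the 4 globin genes Hba-a1, Hba-a2, Hbb-bs and Hbb-bt and the anion exchanger Slc4a1, and 0 lower). Progenitor markers summed to 2833 to 2836 CPM and 2461 to 2495 (0 of 8 called higher, and Mpo, Ctsg, Cebpa and Dntt lower). Marker calls here and below stand beside 9.51% of all genes tested called higher and 8.39% called lower. Jchain, an antibody joining chain made by plasma cells, stood at 136 ± 40.1 and 456 ± 139 CPM (log2 fold change 1.74, edgeR adjusted p = 0.00649). Other B lineage and plasma cell genes went both ways: Mzb1 was called higher (0.75, edgeR adjusted p = 0.0136) and Ebf1 (-0.82, 0.0420) and Sdc1 (-0.44, 0.0115) lower. Neutrophil granule markers (145 to 164 CPM and 108 to 123), monocyte markers (225 to 241 and 189 to 203) and T and NK cell markers (91.7 to 95.9 and 83.9 to 87.4) summed lower in carnosine, while megakaryocyte and stromal sums overlapped. The neutrophil sum was carried by Prtn3 and Elane, and the median log2 fold change of the 5 neutrophil genes tested was 0.14. No marker in these lists was at 0 counts over the 6 libraries. These markers moved with the groups, as the mitochondrial genes did, and their part in the results below was not tested. A larger share of cells of a type and more RNA per cell cannot be told apart in bulk samples.

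The genome is so compact that neighbouring genes abut or overlap, which bears on how reads are shared between them. The junction of the large rRNA gene mt-Rnr2, the leucine tRNA gene mt-Tl1 and the complex I gene mt-Nd1 is shown because all 3 of these genes rose, with no base between them (GRCm38 chrM:2656-2770, plus strand, the tRNA in capitals):
mt-Rnr2/mt-Tl1/mt-Nd1: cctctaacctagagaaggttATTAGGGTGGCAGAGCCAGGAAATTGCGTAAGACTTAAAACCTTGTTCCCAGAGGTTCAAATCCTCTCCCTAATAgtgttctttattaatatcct
The complex V pair mt-Atp8 and mt-Atp6 shares 43 bases that are read in different frames (chrM:7915-7981, plus strand, shared bases in capitals, from the start codon of mt-Atp6 to the stop codon of mt-Atp8):
mt-Atp8/mt-Atp6: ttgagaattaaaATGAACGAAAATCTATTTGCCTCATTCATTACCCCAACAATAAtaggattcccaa
The complex I pair mt-Nd4l and mt-Nd4 shares 7 bases in the same manner (chrM:10155-10185, plus strand, shared bases in capitals):
mt-Nd4l/mt-Nd4: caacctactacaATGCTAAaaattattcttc
A read over these shared bases cannot be given to 1 gene of the pair from its sequence alone. Sequences here and below are those of the GENCODE M21 transcripts, and the deposited coordinates of all 37 members equal those of that release. The frames of mt-Co3, mt-Nd4 and mt-Cytb each end with 1 base past their last whole codon, a T, which polyadenylation is known to complete to a stop codon.

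A larger part of the libraries lay on mitochondrial genes in carnosine. The 37 genes took 2.68%, 2.75% and 2.83% of counts in the saline libraries and 3.19%, 3.14% and 3.10% in the carnosine libraries. The groups did not overlap, at 2.75% ± 0.0762 and 3.14% ± 0.0419, a ratio of 1.14. Counting error was small beside this gap, since the 95% Wilson intervals reached at most 0.0106 percentage points from each share. The exact two-sided permutation test gave p = 0.10, the smallest that 3 against 3 libraries allow (adjusted p = 0.10 over 4 sets). By class, the ratio of mean shares was 1.13 for protein-coding genes, 1.21 for rRNA and 1.34 for tRNA, with no overlap and the same exact permutation p of 0.10 for each. By complex, the ratio was 1.23 for complex I, 1.20 for complex III, 1.09 for complex IV and 1.08 for complex V, and complex V was the one whose groups overlapped.

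**Figure D1:**
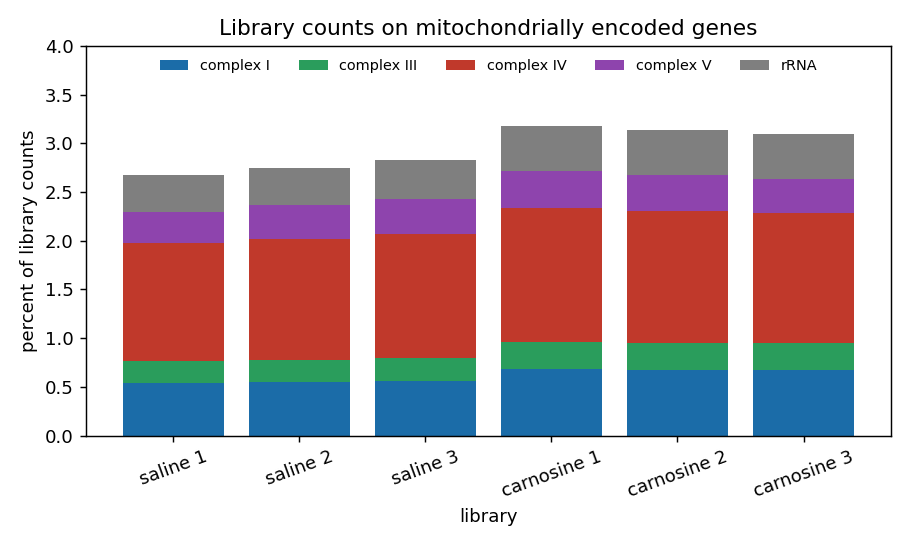
Percent of library counts on mitochondrially encoded genes, stacked by complex and rRNA, in each of the 6 libraries (tRNA, under 0.01%, is not drawn). The saline bars reach 2.68% to 2.83% and the carnosine bars 3.10% to 3.19%, and complex IV is the tallest segment in every library.

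Gene by gene, 13 members rose in carnosine and 0 fell by edgeR's quasi-likelihood test with Benjamini-Hochberg adjustment over all 15298 genes tested (threshold 0.05). Across all genes tested, 9.51% were called higher and 8.39% lower. Only 19 members had enough counts for the test: the 13 protein-coding genes, both rRNAs and 4 tRNAs. All 19 fold changes lay above 0, with a median log2 fold change of 0.25 for carnosine against saline, where the median of all genes tested was 0.00. For 14 of the 19, the carnosine libraries all exceeded the saline libraries, and 19.7% of all genes tested did so. The rises were modest: among the 13 genes called, they ran from 8.66% for mt-Co2 to 41.8% for mt-Tl1. DESeq2 called 11 of the 19 higher, where it called 5.05% of all genes higher and 4.99% lower. With offsets for gene length and GC content, an alternative chosen after seeing the data, edgeR also called 11 higher, where 9.84% of all genes were called higher and 7.58% lower. No member was called lower in any alternative run.

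**Figure D2:**
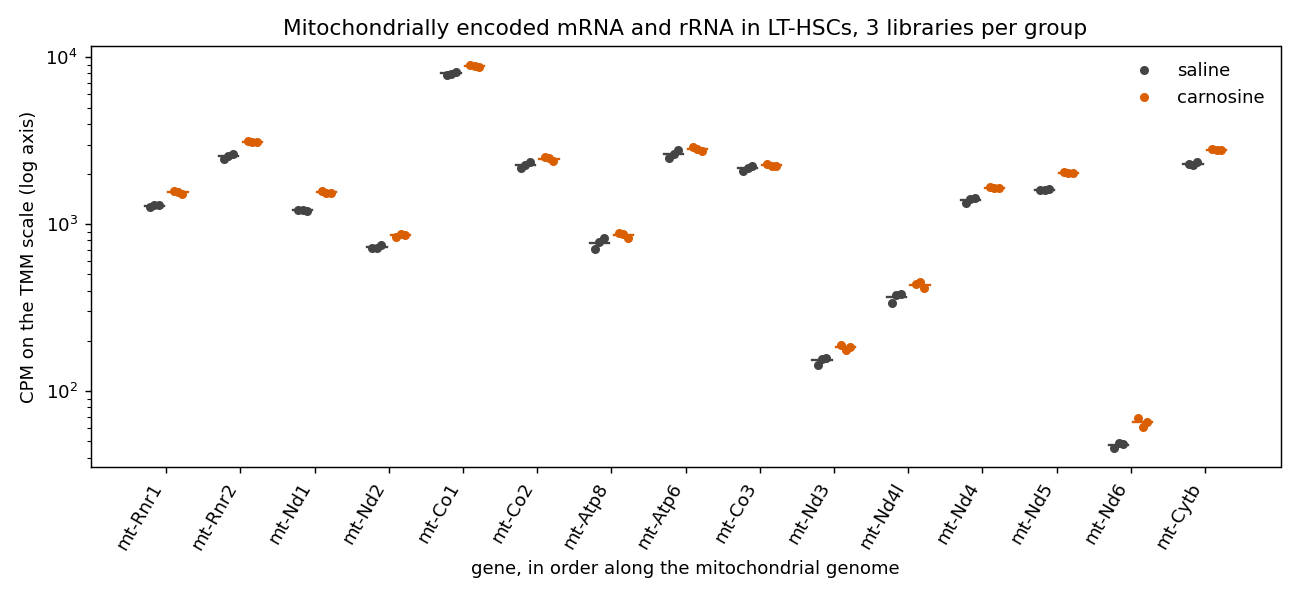
Level of the 13 mRNAs and 2 rRNAs in CPM (log axis) in each library, in order along the genome, with points for libraries and a line for the group mean. The genes of complex I and mt-Cytb separate the groups, while the points of mt-Atp8, mt-Atp6 and mt-Co3 overlap.

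Complex I, the NADH dehydrogenase that passes electrons from NADH to ubiquinone, had 7 of 7 mitochondrial subunits that rose, with log2 fold changes from 0.23 to 0.45. The gene mt-Nd1 encodes a membrane subunit at the ubiquinone site and was measured at 1210, 1214 and 1202 CPM in saline and 1574, 1547 and 1546 CPM in carnosine. Its groups lay far apart next to their spread (1208 ± 5.97 and 1555 ± 15.9 CPM, log2 fold change 0.36, SE 0.02, edgeR adjusted p = 1.68e-05). The proton-pumping subunit gene mt-Nd5 stood at 1594, 1593 and 1634 CPM against 2048, 2027 and 2038 CPM (0.34, SE 0.02, edgeR adjusted p = 2.46e-05). In both genes the lowest carnosine library exceeded the highest saline library by several times the range within either group.

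The largest fold in complex I belonged to mt-Nd6, the one mRNA gene on the light strand. It was also the least abundant message, at 45.6, 48.9 and 48.5 CPM in saline and 69.1, 61.4 and 65.5 CPM in carnosine (log2 fold change 0.45, SE 0.06, edgeR adjusted p = 0.00287). Its last 14 bases lie opposite the end of mt-Nd5, and most of the light strand faces heavy-strand transcripts. The kit was stranded, but no source used here gives the strand setting of the counting, so reads from the opposite strand cannot be told apart from mt-Nd6 here. The log2 ratio of mt-Nd6 to mt-Nd5 overlapped between groups, at -5.08 ± 0.0516 and -4.97 ± 0.0780.

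The other membrane subunits of complex I had smaller folds. For mt-Nd2 the libraries read 722, 720 and 749 CPM and then 844, 870 and 861 CPM (0.23, SE 0.02, edgeR adjusted p = 0.000826). For mt-Nd4 they read 1331, 1414 and 1444 CPM against 1670, 1640 and 1644 CPM (0.24, SE 0.03, edgeR adjusted p = 0.00204). The short gene mt-Nd3 went from 153 ± 7.49 to 183 ± 5.33 CPM (0.26, SE 0.04, edgeR adjusted p = 0.00725). Saline replicate 1 was the lowest library for mt-Nd3, mt-Nd4 and mt-Nd4l. The call of mt-Nd4l was the least firm of the 7, with 336, 376 and 384 CPM in saline and 439, 451 and 413 CPM in carnosine (0.25, SE 0.06, edgeR adjusted p = 0.0215). It was lost without carnosine replicate 1 (adjusted p = 0.0645), without carnosine replicate 2 (0.0656) and with offsets for gene length and GC content (0.111), where its log2 fold change was 0.12. The ratio of mt-Nd4l to its overlapping partner mt-Nd4 did not separate the groups (log2 ratio -1.94 ± 0.0440 and -1.93 ± 0.0645).

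Complex III transfers electrons from ubiquinol to cytochrome c, and its single mitochondrial subunit, cytochrome b, is encoded by mt-Cytb. This message read 2303, 2277 and 2348 CPM in saline and 2818, 2767 and 2767 CPM in carnosine. The groups were separate (log2 fold change 0.27, SE 0.02, edgeR adjusted p = 8.14e-05), and the fold was close to the median of the complex I genes, 0.26.

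Complex IV, cytochrome c oxidase, reduces oxygen to water, and its 3 mitochondrial genes encode the catalytic core. They held the most counts of any complex, and their folds were smaller than those of complex I. The subunit I gene mt-Co1 was the most abundant member, at 7836, 7997 and 8197 CPM in saline and 8984, 8868 and 8786 CPM in carnosine, with no overlap (0.15, SE 0.02, edgeR adjusted p = 0.00186, DESeq2 adjusted p = 0.0509). The subunit II gene mt-Co2, at 2170, 2276 and 2354 CPM against 2513, 2480 and 2397 CPM, was just past the threshold (0.12, SE 0.03, edgeR adjusted p = 0.0397). That call was lost without saline replicate 1 or 2 or carnosine replicate 1 or 2 (adjusted p up to 0.112), with DESeq2 (0.237) and with length and GC offsets (0.186). The subunit III gene mt-Co3 was not called, at 2087, 2158 and 2243 CPM against 2305, 2233 and 2220 CPM (0.06, SE 0.03, edgeR adjusted p = 0.199). Its highest saline library exceeded 2 of the 3 carnosine libraries.

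Complex V is the ATP synthase, and its 2 mitochondrial genes encode parts of the membrane motor. Neither was called. The proton channel gene mt-Atp6 read 2488, 2634 and 2771 CPM in saline and 2896, 2842 and 2747 CPM in carnosine (0.10, SE 0.04, edgeR adjusted p = 0.107). The short upstream gene mt-Atp8 read 715, 785 and 829 CPM against 890, 874 and 828 CPM (0.15, SE 0.05, edgeR adjusted p = 0.0893). In each gene the lowest carnosine library, replicate 3, fell just under the highest saline library, replicate 3. Without saline replicate 3 both passed the threshold (adjusted p = 0.0383 for mt-Atp6 and 0.0447 for mt-Atp8).

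The rRNAs of the mitochondrial ribosome both rose. The small-subunit rRNA mt-Rnr1 read 1261, 1298 and 1311 CPM in saline and 1578, 1561 and 1527 CPM in carnosine (0.27, SE 0.02, edgeR adjusted p = 0.000265). The large-subunit rRNA mt-Rnr2 read 2472, 2555 and 2630 CPM against 3143, 3113 and 3108 CPM (0.29, SE 0.02, edgeR adjusted p = 0.000233). The 2 moved together: the log2 ratio of mt-Rnr2 to mt-Rnr1 was 0.984 ± 0.0178 in saline and 1.01 ± 0.0176 in carnosine. Libraries were made from poly-A-selected RNA, and rRNA carries short tails, so these levels count the captured fraction only.

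The tRNA genes gave 1878 counts over all 6 libraries. Mature tRNAs carry no poly-A tail and are shorter than most library inserts. Of the tRNA counts, 62.6% lay on mt-Tl1, the gene between mt-Rnr2 and mt-Nd1 printed above, at 13.4, 14.1 and 14.3 CPM in saline and 19.7, 19.5 and 20.01 CPM in carnosine. It was the one tRNA gene that rose (0.50, SE 0.07, edgeR adjusted p = 0.00363), and the log2 fold change was 0.33 with length and GC offsets (adjusted p = 0.0192). Its ratio to each neighbour was also higher in every carnosine library, by 0.14 in log2 against mt-Nd1 and 0.21 against mt-Rnr2. These 2 ratios were chosen after the values were seen and were not tested.

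The lysine tRNA gene mt-Tk, which lies between mt-Co2 and mt-Atp8, had the largest fold of any member tested and few counts, 45 in saline and 74 in carnosine. Its sequence is shown because no other member tested had a larger fold (chrM:7700-7764, plus strand, no base marked):
mt-Tk: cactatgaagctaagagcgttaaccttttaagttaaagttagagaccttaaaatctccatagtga
It was measured at 1.25, 1.36 and 1.36 CPM in saline and 1.99, 1.92 and 2.27 CPM in carnosine, with no overlap but not called (log2 fold change 0.64, SE 0.20, edgeR adjusted p = 0.0743). The tryptophan tRNA mt-Tw, at 2.03 ± 0.281 and 2.39 ± 0.418 CPM (edgeR adjusted p = 0.484), and the threonine tRNA mt-Tt, at 0.948 ± 0.201 and 1.07 ± 0.0799 CPM (edgeR adjusted p = 0.755), overlapped between groups. The 18 tRNA genes below the filter held 358 counts in all, 6 to 57 per gene and at most 13 in a library. Of the 18, 11 had more counts in the carnosine libraries summed. Those with fewer were mt-Tc, mt-Td, mt-Tr and mt-Tl2, and mt-Ty, mt-Ts1 and mt-Ts2 were tied. These are raw counts not scaled to depth, and the carnosine libraries together were the deeper. Without mt-Tl1, the other 21 tRNA genes together read 9.04, 8.93 and 9.10 CPM in saline and 11.3, 10.5 and 11.4 CPM in carnosine. The groups did not overlap (9.03 ± 0.0833 and 11.1 ± 0.514 CPM, exact two-sided permutation p = 0.10).

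Levels of different genes can be compared only per length, for which the deposited FPKM values serve. In saline, mt-Co1 led at 5182 ± 111 FPKM, followed by mt-Atp6 at 3861 ± 203, mt-Atp8 at 3803 ± 277, mt-Co2 at 3312 ± 131 and mt-Co3 at 2757 ± 96.4. The first 5 places were thus held by genes of complexes IV and V. Below them came mt-Cytb at 2018 ± 30.3 FPKM, the rRNAs mt-Rnr2 at 1612 ± 48.0 and mt-Rnr1 at 1350 ± 25.4, and mt-Nd1 at 1262 ± 7.16. The rest of complex I was lower still, from mt-Nd4l at 1229 ± 85.8 FPKM through mt-Nd4 at 1013 ± 41.3, mt-Nd5 at 881 ± 12.2, mt-Nd2 at 703 ± 14.9 and mt-Nd3 at 438 ± 21.02 to mt-Nd6 at 91.8 ± 3.41. Messages cut from a shared heavy-strand precursor thus differed widely in level, from mt-Co1 to mt-Nd3. In carnosine the order was the same except that mt-Atp8 (4218 ± 156 FPKM) and mt-Atp6 (4135 ± 111 FPKM) traded places. That pair overlapped in both groups, mt-Nd1 and mt-Nd4l overlapped in saline, and mt-Rnr1 and mt-Nd1 overlapped in carnosine, while all other neighbours in the order were separate over the libraries. This order is that of counts as deposited. Nuclear copies, described below, took a mean of 18.6% of the saline counts on mt-Atp6 and its copy, and 16.2% for mt-Nd4l. For mt-Atp8, mt-Nd1 and the rRNAs no counted copy was found. The places of close neighbours may thus differ with copies added, which was not computed.

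**Figure D3:**
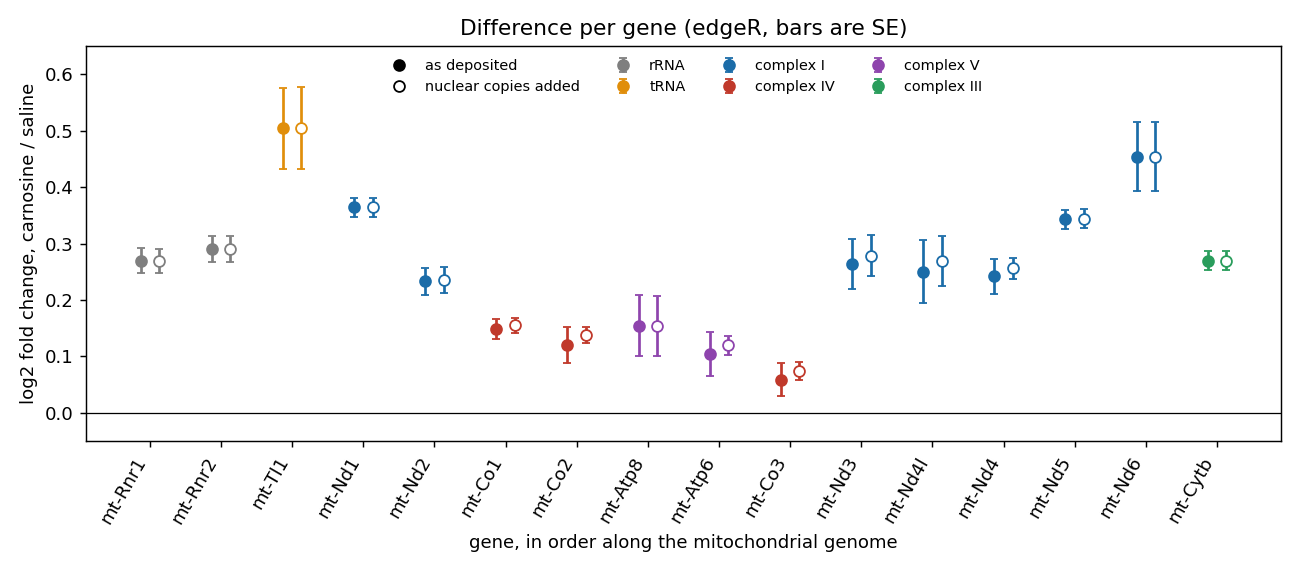
Log2 fold change of carnosine against saline for the mRNAs, rRNAs and mt-Tl1 in order along the genome, with bars for the standard error, from counts as deposited (filled) and with nuclear copies added (open). The 5 adjacent genes from mt-Co1 to mt-Co3 lie at 0.06 to 0.15 as deposited, and all others drawn lie at 0.23 or above.

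The make-up of the mitochondrial mRNA pool was compared as each gene's share of protein-coding counts. Most complex I messages and that of cytochrome b held larger shares in carnosine: mt-Nd5 held 6.79% ± 0.124 in saline and 7.59% ± 0.0920 in carnosine, and mt-Nd1 5.11% ± 0.167 and 5.79% ± 0.0371. The largest shifts the other way were in mt-Co3, from 9.14% ± 0.0639 to 8.39% ± 0.0715, and mt-Co1, from 33.9% ± 0.228 to 33.1% ± 0.0876. Of the 13 genes, 6 were higher with no overlap (mt-Nd1, mt-Nd3, mt-Nd4, mt-Nd5, mt-Nd6 and mt-Cytb), 4 were lower with no overlap (mt-Co1, mt-Co2, mt-Atp6 and mt-Co3) and 3 overlapped. Each of the 10 separated shares had an exact permutation p of 0.10, the smallest possible, and an adjusted p of 0.13 over the 13 genes, so none passed the threshold. Shares of a whole depend on each other, since a rise of 1 gene lowers the rest.

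The smallest fold changes sat side by side on the genome. The 5 smallest among the mRNAs and rRNAs belonged to mt-Co1 (0.15), mt-Co2 (0.12), mt-Atp8 (0.15), mt-Atp6 (0.10) and mt-Co3 (0.06), which are consecutive mRNA genes spanning chrM:5328-9390. The mRNA genes on either side, mt-Nd2 (0.23) before and mt-Nd3 (0.26) after, belong to complex I. Complex and position cannot be told apart here, because all mitochondrial genes of complexes IV and V lie in this stretch. This grouping was noticed after the values were seen and is given as a description. With length and GC offsets it did not hold, since mt-Nd4l (0.12) then lay below mt-Co1 (0.14).

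Nuclear DNA holds copies of mitochondrial sequence, and several of them had counts. Of the annotated nuclear genes with at least 90% identity to a member over 100 bases, 12 had 20 or more counts, with 174547 counts in all, equal to 8.47% of the members' own counts. Most came from 7 pseudogenes in a block on chromosome 1, chr1:24611535-24616197, which copies the stretch from mt-Co1 to mt-Nd4. The copy Gm10925 matches mt-Atp6 at 100% over 678 bases. The first 90 bases of the 2 are shown because no base differs (differing bases would be in capitals; mt-Atp6 chrM:7927-8016, plus strand; Gm10925 chr1:24614562-24614651, minus strand):
mt-Atp6: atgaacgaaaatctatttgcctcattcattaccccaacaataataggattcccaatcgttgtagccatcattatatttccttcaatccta
Gm10925: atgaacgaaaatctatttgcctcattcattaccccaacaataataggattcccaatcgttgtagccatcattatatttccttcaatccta
By contrast Gm13340 on chromosome 2, a copy of mt-Co1 with 97.6% identity over 1545 bases, differs at 3 of the first 90 (capitals; mt-Co1 chrM:5328-5417, plus strand; Gm13340 chr2:22589558-22589647, minus strand):
mt-Co1: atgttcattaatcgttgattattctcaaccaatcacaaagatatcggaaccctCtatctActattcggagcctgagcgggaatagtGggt
Gm13340: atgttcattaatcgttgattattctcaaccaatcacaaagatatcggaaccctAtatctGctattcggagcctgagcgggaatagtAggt
A read from an identical stretch cannot be assigned to either place by sequence, and no source used here says how such reads were treated.

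The split between members and their chromosome 1 copies varied from library to library and overlapped between treatments. On chromosome 2, Gm13339 held 0.611% ± 0.0610 of its counts with mt-Nd2 in saline and 0.768% ± 0.0297 in carnosine, with no overlap. The share of Gm13341, a copy of mt-Co2 with 42 counts, was also higher in carnosine with no overlap. Shares of the remaining copies overlapped. Of the counts on mt-Atp6 and Gm10925 together, Gm10925 took 21.8%, 17.9% and 16.1% in saline and 17.6%, 19.4% and 21.2% in carnosine. The same libraries were high and low for Gm28661, the copy of mt-Co2, at 20.5%, 17.8% and 15.8% and then 17.7%, 18.6% and 20.8%. For the whole chromosome 1 block the share was 12.4%, 10.3% and 9.53% in saline and 10.2%, 11.3% and 12.2% in carnosine (10.8% ± 1.498 and 11.3% ± 1.04, exact two-sided permutation p = 0.80). Saline replicate 1 and carnosine replicate 3 were the highest of their groups, and these were the libraries in which mt-Co2, mt-Atp6 and mt-Co3 were lowest. Among members without a counted copy, mt-Rnr1, mt-Rnr2 and mt-Atp8 were lowest in the same libraries. The other mRNAs without one did not follow in both groups. Within saline, mt-Nd1 was lowest in replicate 3 and mt-Cytb in replicate 2, and within carnosine, mt-Nd6 was lowest in replicate 2.

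When the counts of each copy were added to the member it matches, an alternative chosen after seeing the data, the spread within groups shrank for the members with a copy on chromosome 1. It hardly moved for mt-Nd2 and mt-Nd5, whose copies hold few counts. The coefficient of variation of mt-Atp6 over the saline libraries went from 5.37% to 2.01%, that of mt-Co2 from 4.08% to 1.23% and that of mt-Co3 from 3.61% to 1.46%. With copies added, mt-Atp6 read 3180, 3208 and 3304 CPM in saline and 3517, 3527 and 3489 CPM in carnosine. The groups, which had overlapped, were then separate, as were those of mt-Co3. The fold changes moved little, but mt-Atp6 (0.12, edgeR adjusted p = 0.00359) and mt-Co3 (0.07, edgeR adjusted p = 0.0161) passed the threshold, and mt-Co2 (0.14, edgeR adjusted p = 0.000861) was no longer borderline. In that fit 15 of 19 members were called higher and 0 lower, 12 of 13 among protein-coding genes, where 9.54% of all genes tested were called higher and 8.42% lower. The gene still not called, mt-Atp8 (0.15, edgeR adjusted p = 0.0880), has no annotated copy among those found. It lies within the stretch that the chromosome 1 block copies, and Gm10925 carries the 43 bases it shares with mt-Atp6. Whether reads of mt-Atp8, or of tRNA genes in that stretch such as mt-Tk, were split with that block was not tested. The stretch from mt-Co1 to mt-Co3 still held the 5 smallest folds, 0.07 to 0.16, and 8 shares of the mRNA pool were then higher with no overlap and 4 lower.

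**Figure D4:**
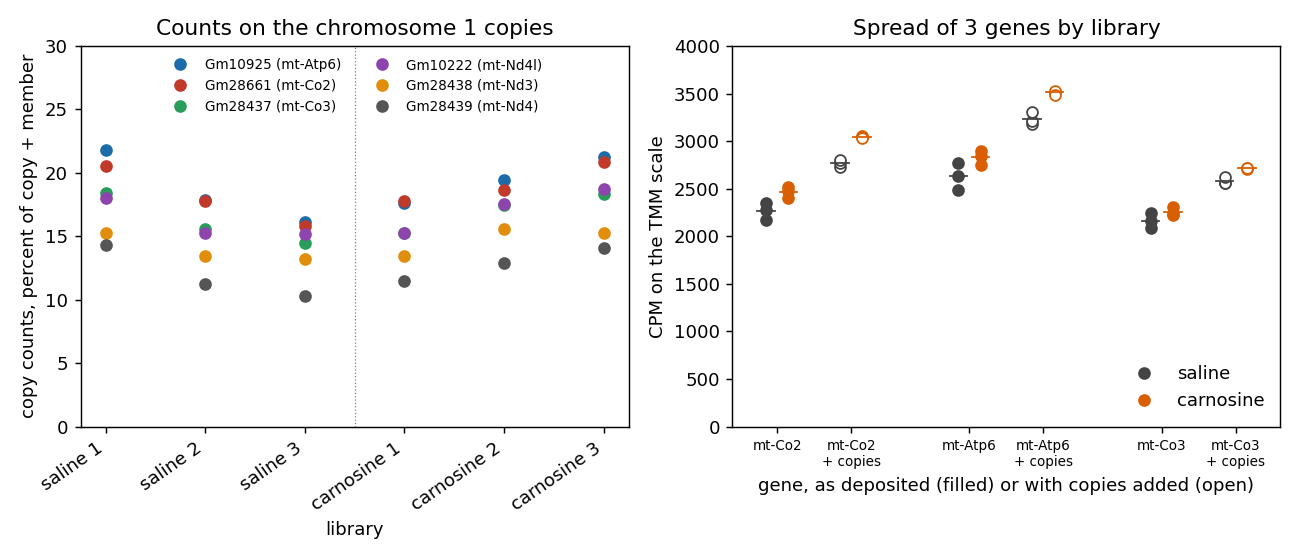
Left, share of the chromosome 1 copy in the counts of member plus copy, in percent, for 6 pairs in each library. Right, level of 3 genes in CPM as deposited (filled) and with copies added (open), with points for libraries and a line for the mean; the saline and carnosine points of mt-Atp6 and mt-Co3 separate once copies are added.

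Some copies were called higher themselves, beside 9.51% of all genes tested. Gm28438, the copy of mt-Nd3 (log2 fold change 0.36, edgeR adjusted p = 0.0175), Gm10222, of mt-Nd4l (0.36, 0.0216), Gm13339, of mt-Nd2 (0.57, 0.0222), and Gm4076, of mt-Nd5 (0.74, 0.0271), rose. Gm10222 matches its member at 100% and Gm28438 at 99.7%. Reads over their identical stretches cannot be told apart from those of the member, so these rises are not separate from the members' own. The copies of mt-Atp6 (Gm10925, 0.19, adjusted p = 0.244), mt-Co2 (Gm28661, 0.22, 0.129), mt-Co3 (Gm28437, 0.15, 0.303) and mt-Nd4 (Gm28439, 0.36, 0.0775) were not called, nor were those of mt-Co1 (Gm13340, 0.32, 0.0849; Gm29216, 0.19, 0.221). Each of the 4 calls was lost in 4 of the 6 fits that left out 1 library, always including those without saline replicate 2 or 3 (adjusted p from 0.0570 to 0.0847 in those fits). Gm29155, listed at first as a copy, matched no member within these limits and had 11 counts. The limit of 100 bases leaves out the tRNA genes, which are all shorter, so copies of them were not searched. The calls of mt-Nd1, mt-Nd6, mt-Cytb and both rRNAs rest on genes for which no copy with 20 counts was found.

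Each of complexes I, III, IV and V is built from subunits of both genomes, and nuclear subunit genes also rose. Of the nuclear-encoded subunits, 10 of 36 in complex I, 5 of 9 in complex III, 5 of 11 in complex IV and 5 of 17 in complex V were called higher, and 0 lower in any of them, beside 9.51% and 8.39% of all genes tested. Their median log2 fold changes were 0.12, 0.20, 0.18 and 0.18. The subunits called in complex III were Uqcrfs1, Uqcrc1, Uqcrc2, Uqcrb and Cyc1, in complex IV Ndufa4, Cox7a2, Cox6a1, Cox6b1 and Cox6c, and in complex V Atp5a1, Atp5b, Atp5c1, Atp5pb and Atp5g3. Leaving out any 1 library left 3 to 5 called in complex I and 2 to 3 in complex III. The count was 2 to 5 in complex IV, lowest without carnosine replicate 1, and 4 to 5 in complex V, in fits that called 5.99% to 6.45% of all genes higher. DESeq2, which called 5.05% of all genes higher, called 3, 2, 4 and 4. The complex I count, 3 in the lowest of these fits, thus came near the share of all genes. In complex II, succinate dehydrogenase, which has no mitochondrial gene, 3 of 4 were called higher (median 0.23), led by the catalytic subunit Sdha at 323 ± 7.28 and 385 ± 2.96 CPM. Without any 1 library, 2 to 3 of the 4 were called, and Sdhd lost its call in 5 of the 6 fits. The beta subunit of ATP synthase, Atp5b (log2 fold change 0.29, SE 0.02, edgeR adjusted p = 0.000356), also rose.

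The balance between the genomes was summarised as the log2 ratio of summed mitochondrial to summed nuclear subunit CPM. In complex I it was 1.82, 1.90 and 1.91 in saline and 2.05, 2.03 and 2.02 in carnosine, higher by 0.15 with no overlap. In complex V it was 0.369, 0.420 and 0.539 against 0.334, 0.341 and 0.267, lower by a log2 difference of -0.13, also with no overlap. Complex III (difference 0.07) and complex IV (-0.05) overlapped. The exact two-sided permutation p was 0.10 for complexes I and V, the smallest possible (adjusted p = 0.20 over 4 complexes). It was 0.20 for complex III and 0.30 for complex IV, so no difference passed the threshold. Over the 10 settings tried, the complex I difference ran from 0.127 to 0.177 (exact permutation p from 0.10 to 0.25). The complex V difference ran from -0.165 to -0.0804 (exact permutation p from 0.10 to 0.40). The sums above use counts as deposited, in which Gm10925 took a share of mt-Atp6 that varied by library. Behind these ratios, the ratio of carnosine to saline mean CPM was 1.23 for the mitochondrial sum and 1.11 for the nuclear sum in complex I, and 1.08 and 1.19 in complex V.

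**Figure D5:**
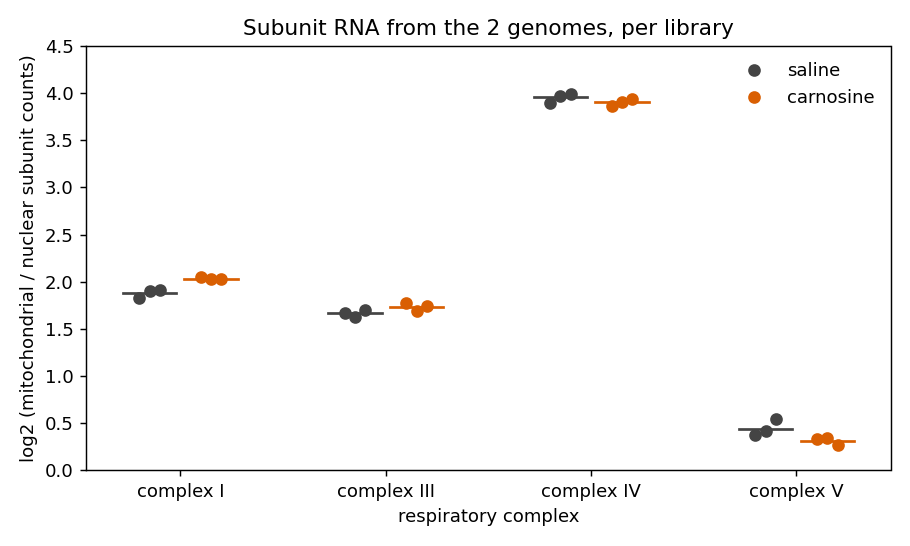
Log2 ratio of summed mitochondrial to summed nuclear subunit counts for complexes I, III, IV and V, with points for libraries and a line for the group mean. The carnosine points lie above the saline points in complex I and below them in complex V, and the groups overlap in complexes III and IV.

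Of 26 genes that maintain and transcribe mitochondrial DNA, 1 was called higher and 3 lower, beside 9.51% and 8.39% of all genes tested, with a median log2 fold change of -0.11. The one called higher was the nuclease and helicase gene Dna2 (0.18, edgeR adjusted p = 0.0344), named after its value was seen, and its call was lost in each of the 6 fits that left out 1 library. Tfam, which packages mitochondrial DNA and starts its transcription, was measured at 57.6 ± 4.97 and 62.0 ± 5.77 CPM (0.11, edgeR adjusted p = 0.442). The polymerase Polrmt (-0.19, edgeR adjusted p = 0.144) and the helicase Twnk (0.03, 0.744) were not called either. The 3 that fell were the nuclease genes Mgme1, from 37.2 ± 1.36 to 28.2 ± 0.674 CPM (-0.40, edgeR adjusted p = 0.00460), and Exog (-0.52, 0.00779), and Polg2, the accessory subunit of the replicative polymerase (-0.48, 0.0148; 0.0643 with DESeq2).

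Among 37 tested genes for processing and stability of mitochondrial RNA, 1 was called higher and 1 lower, both fewer than those shares of all genes. The one that rose was Lrpprc, whose protein stabilises mitochondrial mRNAs, from 74.6 ± 3.01 to 89.5 ± 1.75 CPM (0.26, edgeR adjusted p = 0.00835). Its partner Slirp stood at 9.13 ± 1.01 and 13.2 ± 2.72 CPM (0.54, adjusted p = 0.0620). The RNA helicase gene Dhx30 fell (-0.20, 0.0392). Pnpt1, of the RNA degrading complex (-0.08, 0.266), the poly-A polymerase Mtpap (-0.03, 0.867) and Trmt10c, of the enzyme that cuts tRNA 5′ ends (-0.07, 0.427), were not called.

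The remaining mitochondrial lists are given by their counts, to be read beside the 9.51% of all genes called higher and 8.39% called lower; no difference between lists was tested. Of 18 translation factors 1 rose, C1qbp (0.37, edgeR adjusted p = 0.00172), and 2 fell, Mtg2 (-0.43, 0.0103) and Mtfmt (-0.30, 0.0277). Of 10 biogenesis regulators 0 rose and 1 fell, the nuclear receptor Esrra (-0.46, 0.00974); the coactivator Ppargc1a was low at 2.49 ± 0.533 and 2.56 ± 0.671 CPM (adjusted p = 0.899). Of 14 import and outer membrane genes 8 rose (5 to 6 without 1 library) and 0 fell, among them the channel Vdac1 (0.34, 0.00126) and the import receptor Tomm70a (0.25, 0.00453). Of 14 proteases and chaperones 5 rose and 0 fell: the matrix chaperone Hspa9 (0.31, 8.54e-05), the protease Lonp1 (0.25, 0.00186), Trap1, Hspd1 and Phb2. Of 15 genes of mitophagy and dynamics 2 rose, Dnm1l (0.24, 0.0261) and Opa1 (0.22, 0.0330), and 1 fell, Ulk1 (-0.17, 0.0182). Of the respiratory and other nuclear genes named, Uqcrb and Dna2 lost their call in all 6 fits that left out 1 library. Sdhd, Uqcrc2, Cyc1, Cox6b1, Cox6c, Atp5c1, Dnm1l, Opa1, Ulk1, Dhx30 and Mtfmt lost it in 4 or 5 of the 6, and Cox6a1 and Phb2 without carnosine replicate 1 or 2. Adjusted p ran from 0.0511 to 0.125 where a call was lost.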

How the data were processed

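Bulk RNA was measured in 6 LT-HSC libraries, 3 saline and 3 carnosine. Per the labels' protocols, RNA had an integrity number above 7.0, poly-A RNA was selected, and stranded libraries were sequenced on a NovaSeq. Tools named in the submitters' processing notes are CASAVA 1.8, HISAT2, StringTie and edgeR, with build GRCm38. No source used here gives the counting options or the handling of multiply mapped reads. The authors deposited raw counts beside FPKM for every gene in every library, per the file headers. Each member's FPKM matched its count over the library total and the annotated gene length.

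Counts were scaled by TMM and filtered with filterByExpr (15298 of 55487 genes kept; 19 of 37 members) and tested with edgeR 4.0.16 (R 4.3.3; quasi-likelihood F test, two-sided). Benjamini-Hochberg adjustment ran over the genes kept. Fold changes are carnosine against saline. Shares and ratios were tested with exact two-sided permutation tests (scipy 1.17.1). A count of 3, the limit that 0 counts allow, was 0.226 to 0.291 CPM; such limits and intervals cover counting error only. Replicate libraries differed by more than sampling noise (chi-square per degree of freedom 5.19 to 6.34). Nuclear copies were found by aligning GENCODE M21 transcripts with blast 2.17.0. The edgeR fit was tested on simulated data.

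The members and gene lists were chosen with earlier results of these data known. Named genes are all members, the nuclear copies, and from the other lists the members with the smallest p (up to 3 a list) together with Tfam, Polrmt, Twnk, Lrpprc, Slirp, Pnpt1, Mtpap, Trmt10c and Ppargc1a. Flt3 and Cd34, the genes of the sort gate, were added. Genes making up a count of 5 or fewer calls in a list (Uqcrb, Cyc1, Cox6b1, Cox6c, Atp5c1, Atp5pb, Hspd1, Phb2, Dna2 and markers) were named after their values were seen. The B lineage and plasma cell list is not reported here as a whole. Other settings tried were DESeq2 1.42.0, limma-voom, alternative scalings and filters, limma 3.58.1 on log2(FPKM + 1) and log2(FPKM + 0.1), thresholds of 0.01 and 0.1, a replicate block, leaving out each library and, chosen after seeing the data, adding nuclear copies and offsets for length and GC content.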

Additional observations from a re-analysis of the deposited data

How the results depend on the processing

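Over all alternatives, 11 to 15 members were called higher and 0 lower, and 8 to 12 of the protein-coding members were called higher. The lowest counts came with DESeq2 (11 members), with length and GC offsets (11), at a threshold of 0.01 (11) and without carnosine replicate 1 or 2 (11 each). The highest came with nuclear copies added, without saline replicate 3 and at a threshold of 0.1 (15 each). The fold changes of the 19 members tested in the main fit stayed above 0 in every alternative. The median log2 fold change of the 13 protein-coding members was 0.21 without saline replicate 1 and ranged from 0.21 to 0.27 over the fits that left out a library. The difference in the mitochondrial share of counts ranged from 0.354 to 0.430 percentage points over those fits, and as a share of summed FPKM it was 0.754 points (exact permutation p = 0.10). The difference in the share of mt-Atp8 in the mRNA pool, -0.0609 points for carnosine minus saline, ran from -0.144 points without saline replicate 1 to 0.00163 points without saline replicate 3. Replicate numbers did not pair the libraries (correlations of deviations -0.05, -0.07 and 0.02 for equal numbers). With a replicate block 12 members were called higher, and mt-Co2 was not (edgeR adjusted p = 0.0958). Among all genes, 1455 were called higher and 1283 lower, against 772 and 764 with DESeq2, 946 and 810 with the block, 603 and 504 at a threshold of 0.01, and 932 to 1009 and 801 to 883 without 1 library. Depth limits the tRNA genes, of which 18 of 22 could not be tested.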
